A study of Homo sapiens with 6 samples.

Results

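DNA replication machinery stands here for 53 genes that copy the genome or prepare it for copying, chosen by symbol and each matched to a single row of the count table. They are 53 of 57905 rows and of 16565 genes that passed the low-count filter, and all 53 passed. RNA was measured by RNA-seq in HCT116, a human colorectal carcinoma cell line with wild-type p53. Cells received the vehicle DMSO (Nut 0h, the control) or 10 µM Nutlin-3a for 1 h (Nut 1h) or 10 h (Nut 10h), and each condition had 2 biological replicates, which gives 6 libraries. Nutlin-3a is a compound that keeps HDM2 from binding p53, so that p53 accumulates without DNA damage, and the study used it to follow transcription after p53 activation. A single cell line was used, and nothing in the labels says whether replicates came from separate cultures, so the p-values describe the spread between these libraries.

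Replication starts when the origin recognition complex, CDC6 and CDT1 place the MCM helicase on DNA in G1. In S phase the kinase CDC7 with its partner DBF4, together with MCM10, CDC45 and the GINS complex, turns the loaded helicase into an active one, and polymerases, the PCNA clamp, its loader and the RPA proteins then copy the opened strands. Many of these genes are transcribed around the G1/S transition under E2F factors, and p53 is known to repress such genes through p21, the product of CDKN1A, and the retinoblastoma family.

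The libraries held 26068076 to 35473485 reads assigned to genes. The line's epithelial markers EPCAM, CDH1, KRT8, KRT18 and KRT19 were all detected, with at least 2354 reads in every library. PTPRC, CD3E, ALB and COL3A1, markers of other cell types, had at most 2 reads, whereas COL1A1 had 621 to 1484 and PECAM1 was not matched. MDM2, a p53 target, rose by 2.19 on the log2 scale at Nut 1h and by 3.75 at Nut 10h, and CDKN1A rose by 3.84 at Nut 10h (edgeR, adjusted p = 3.55e-08, 4.51e-10 and 1.03e-10). At Nut 1h CDKN1A was not called, with a log2 fold change of 0.046 (edgeR, adjusted p = 0.704). The Nut 1h libraries differed from the others along transcript GC content across all genes, which is described with the Nut 1h values.

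After 10 h of Nutlin-3a the replication genes had fallen almost as a whole. Of the 53 genes, 49 were called lower than Nut 0h and 0 were called higher by edgeR's quasi-likelihood test (adjusted p of at most 0.05), against 14.9% and 14.1% of all tested genes. No gene was higher at an unadjusted p under 0.05 either, and DESeq2, which called 11.4% of the genes it tested higher, called 0 of the 53. Their median log2 fold change was -1.28, which leaves 41.2% of the Nut 0h level, while the median over all tested genes was 0.00020. The summed normalised read count of the 53 genes was 230664 and 222925 in the Nut 0h libraries and 105863 and 99413 in the Nut 10h libraries. At Nut 10h 36 genes were below 50% of their Nut 0h level and 10 were below 30%. The 4 genes that were not called were PCNA, ORC2, ORC4 and ORC5. In RNA from bulk cells, fewer cells that express a gene and less of its RNA per cell cannot be told apart.

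**Figure D1:**
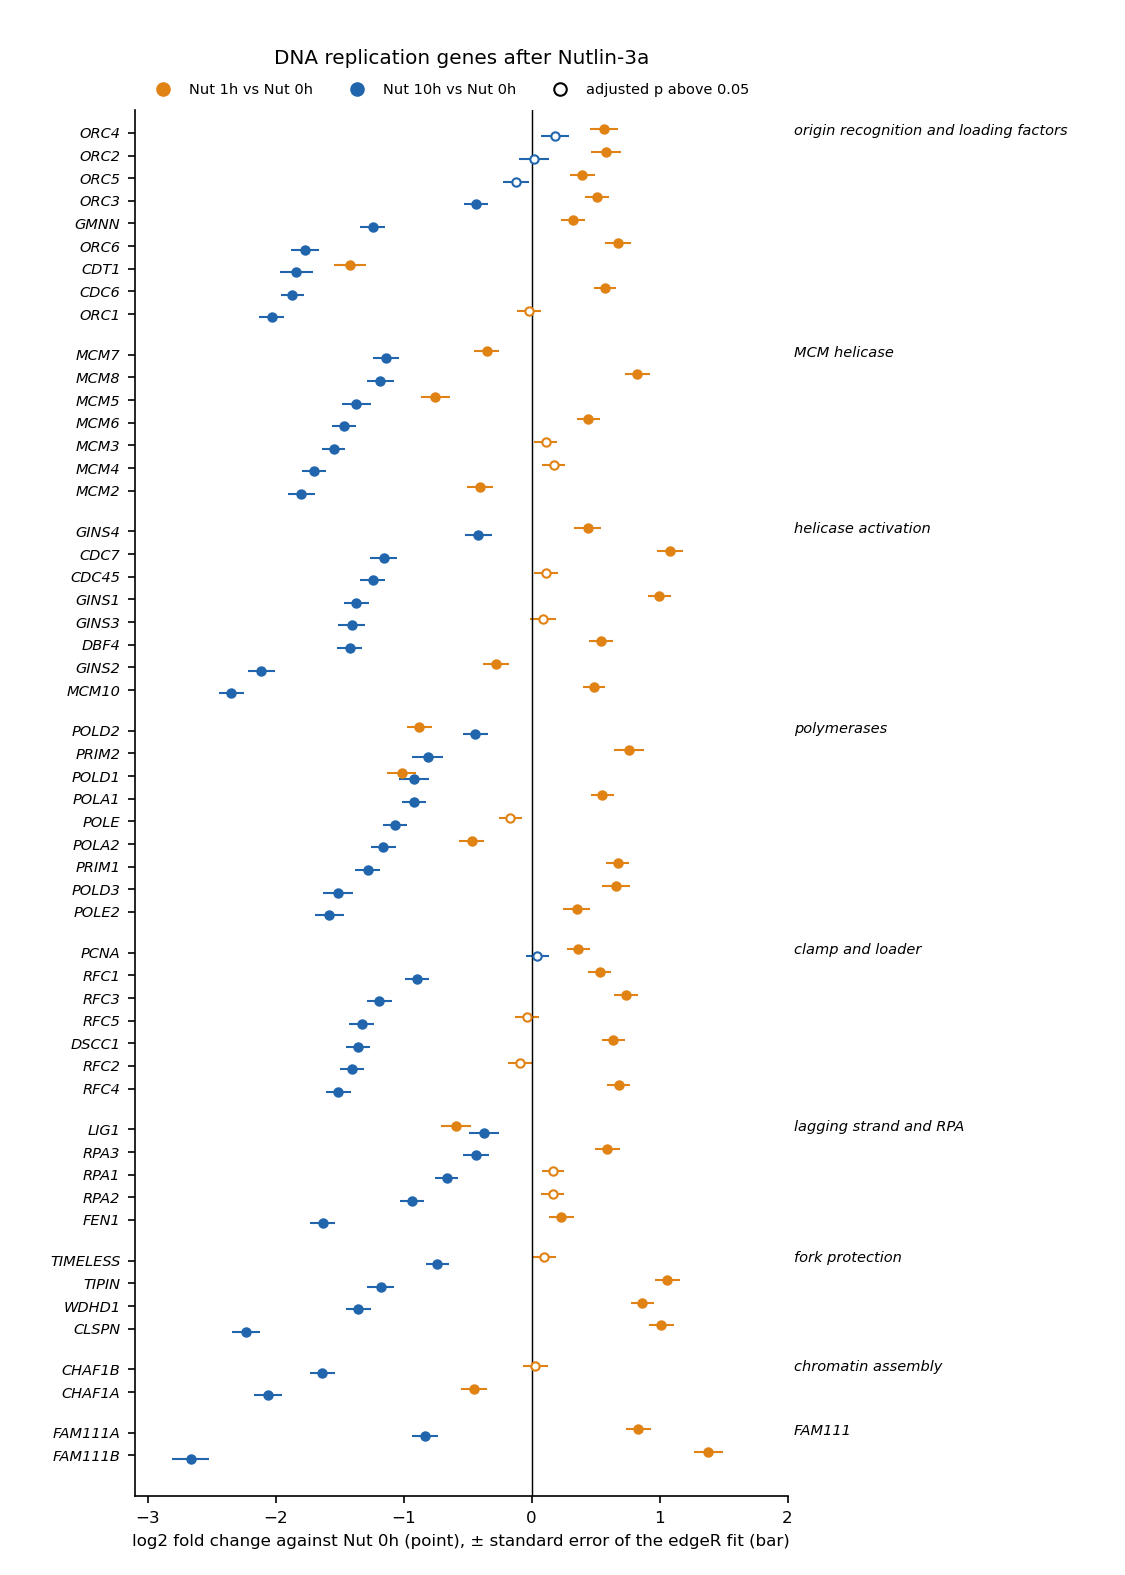
Log2 fold change of each of the 53 replication genes at Nut 1h (orange) and Nut 10h (blue) against Nut 0h, with the standard error of the edgeR fit as bars and open circles for an adjusted p above 0.05, grouped by role and ordered by the Nut 10h value. The blue points lie between -2.66 (FAM111B) and 0.19 (ORC4), and the orange points spread from -1.42 (CDT1) to 1.38 (FAM111B).

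Lists of other cell cycle and replication genes, chosen with earlier results of these data known, were counted in the same way at Nut 10h. Of all tested genes, 14.9% were called lower and 14.1% higher at that time. Of 15 genes of late G2 and mitosis, all 15 were called lower at Nut 10h, with a median of -1.65. Of 6 G1/S cyclins and regulators, 5 were called lower, among them E2F1 with -2.44 and E2F2 with -2.71 on the log2 scale, and CCND1 was called higher with 0.45. Whether a change in the share of cells in each phase took part in the fall of the replication genes was not tested. A list of 34 other replication genes, such as TICRR, DTL and RNASEH2A, had 27 called lower, 1 called higher and 6 not called, with a median of -0.96. The gene called higher was POLD4, a small subunit of DNA polymerase delta, at 0.74 ± 0.14 (SE), named after its value was seen.

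Starts of these genes were read from RefSeq (GRCh38.p14), which had an entry for 45 of the 53, from 250 bases before to 50 bases after the gene start. Letters typical of E2F sites (TTTCCCGC, TTTCGCGC, TTTGCCGC or TTTGGCGC on either strand) occurred in 19 of the 45, or 42.2%, against 3.32% of 35116 promoters of the same length and 5.19% of the 10212 that belong to tested genes. The CCAAT box (CCAAT) was in 55.6% of the 45, 34.6% of all and 36.6% of those of tested genes, and the CHR element (TTTGAA or TTCGAA) in 4.44%, 16.4% and 10.9%. The 19 genes with an E2F-type match had a median Nut 10h log2 fold change of -1.37, and the 26 without one had -1.24. For the 45 the first listed entry of each gene was read, whereas the 35116 promoters were not reduced to a single entry per gene. A match describes letters only, and no binding was measured here. The windows of 5 genes that fell and of PCNA, which was not called, were chosen because they hold a match, whereas MCM10, CHAF1A, ORC1 and ORC6 also fell and had none. They are shown from 120 bases before to 30 bases after the start, 5′ to 3′ on the gene's strand, with E2F-type matches in capitals.
MCM2 (chr3:127598291-127598440, plus strand): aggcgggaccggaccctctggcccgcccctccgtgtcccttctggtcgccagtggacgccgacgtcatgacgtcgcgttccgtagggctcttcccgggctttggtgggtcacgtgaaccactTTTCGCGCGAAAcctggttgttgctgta
CDC6 (chr17:40287759-40287908, plus strand): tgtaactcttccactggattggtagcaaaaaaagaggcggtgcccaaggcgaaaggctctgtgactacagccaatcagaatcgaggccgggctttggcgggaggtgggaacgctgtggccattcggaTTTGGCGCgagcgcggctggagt
CDT1 (chr16:88803669-88803818, plus strand): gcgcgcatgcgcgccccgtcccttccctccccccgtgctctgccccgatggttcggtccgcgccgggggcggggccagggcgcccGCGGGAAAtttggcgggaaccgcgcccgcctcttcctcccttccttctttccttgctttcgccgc
GINS2 (chr16:85688925-85689074, minus strand): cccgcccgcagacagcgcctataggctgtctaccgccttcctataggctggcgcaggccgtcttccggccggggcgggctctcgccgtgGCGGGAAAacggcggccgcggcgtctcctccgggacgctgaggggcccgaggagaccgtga
CLSPN (chr1:35769949-35770098, minus strand): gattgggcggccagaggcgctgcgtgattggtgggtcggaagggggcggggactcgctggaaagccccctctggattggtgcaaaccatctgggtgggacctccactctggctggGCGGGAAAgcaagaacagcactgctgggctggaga
PCNA (chr20:5126593-5126742, minus strand): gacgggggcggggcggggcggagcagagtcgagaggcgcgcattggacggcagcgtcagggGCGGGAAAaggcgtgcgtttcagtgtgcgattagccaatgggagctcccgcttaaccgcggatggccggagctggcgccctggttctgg
In MCM2 a match on each strand overlapped just after the start, beginning at bases 3 and 7 of the transcript, and the CDC6 match began at base 8. The matches of CLSPN, GINS2, CDT1 and PCNA began 5, 31, 35 and 59 bases before the start. PCNA carried the same letters on the same strand as GINS2, CDT1 and CLSPN, and its RNA level at Nut 10h was not called lower.

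Among the factors that choose and license origins, 6 of 9 fell at Nut 10h. ORC1, the subunit that binds CDC6 and completes the origin recognition complex (ENSG00000085840, chr1:52838501-52870095 in GRCh37), had normalised read counts of 2252 and 2438 in the Nut 0h libraries, 2278 and 2343 in Nut 1h and 587 and 560.2 in Nut 10h. Its Nut 0h and Nut 1h libraries overlapped and both Nut 10h libraries were far lower, a log2 fold change of -2.03 ± 0.10 (SE, adjusted p = 4.76e-09). ORC6, the smallest subunit, had 1282 and 1187 in the Nut 0h libraries, 1850.1 and 2098 in Nut 1h and 367 and 357 in Nut 10h, a change of -1.77 ± 0.11 (SE, adjusted p = 2.91e-08) at Nut 10h after being highest at Nut 1h. CDC6, the ATPase that loads the helicase with CDT1 (ENSG00000094804, chr17:38444131-38460909), had 4459 and 4539.5 in the Nut 0h libraries, 6550.5 and 6846 in Nut 1h and 1236 and 1226 in Nut 10h. Both Nut 10h libraries were at 27.4% of the control level (-1.87 ± 0.09 (SE, adjusted p = 4.91e-09)). CDT1, the other loading factor (ENSG00000167513, chr16:88870197-88875666), had 14370.2 and 11839.8 in the Nut 0h libraries, 4621 and 5161 in Nut 1h and 4086 and 3238 in Nut 10h, and differed from Nut 0h by -1.84 ± 0.13 (SE, adjusted p = 9.66e-08). CDT1 was also called lower at Nut 1h, by 1.42 on the log2 scale, which shrank to 0.24 after removal of the GC trend, where ORC3, ORC4 and ORC5 were called lower as well. GMNN, geminin, the inhibitor that binds CDT1, differed by -1.24 ± 0.10 (SE, adjusted p = 3.07e-07).

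Of the remaining subunits of the origin recognition complex, ORC3 was called lower at Nut 10h, and ORC2, ORC4 and ORC5 were not called. ORC4 had 896 and 964 in the Nut 0h libraries, 1427 and 1329 in Nut 1h and 968 and 1147 in Nut 10h, with both Nut 10h libraries slightly above both Nut 0h libraries, a difference that was not called (0.19 ± 0.11 (SE, adjusted p = 0.224)). ORC2 had 1288 and 1507 in the Nut 0h libraries, 2118 and 2069 in Nut 1h and 1257 and 1573 in Nut 10h, and its Nut 0h and Nut 10h libraries overlapped (0.02 ± 0.12 (SE, adjusted p = 0.931)). ORC5 also overlapped, with a log2 fold change of -0.12 ± 0.10 (SE, adjusted p = 0.417), and ORC3 fell by the modest amount of 0.44 ± 0.10 (SE, adjusted p = 0.00353). The ratio of ORC1 to ORC2 normalised counts was 1.75 and 1.62 in the Nut 0h libraries, 1.08 and 1.13 in Nut 1h and 0.467 and 0.356 in Nut 10h. The lower ratio at Nut 1h was not kept after removal of the GC trend, with ORC1 at 0.037 and ORC2 at -0.083 on the log2 scale. A p that misses the threshold does not show that ORC2, ORC4 and ORC5 stayed the same. The ORC2 difference took either sign and lay between -0.14 and 0.17 when single libraries were left out. Adding 2 SE on either side of the log2 values gives the size that these libraries could have missed, from -0.22 to 0.25 for ORC2, -0.03 to 0.40 for ORC4 and -0.32 to 0.08 for ORC5.

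**Figure D2:**
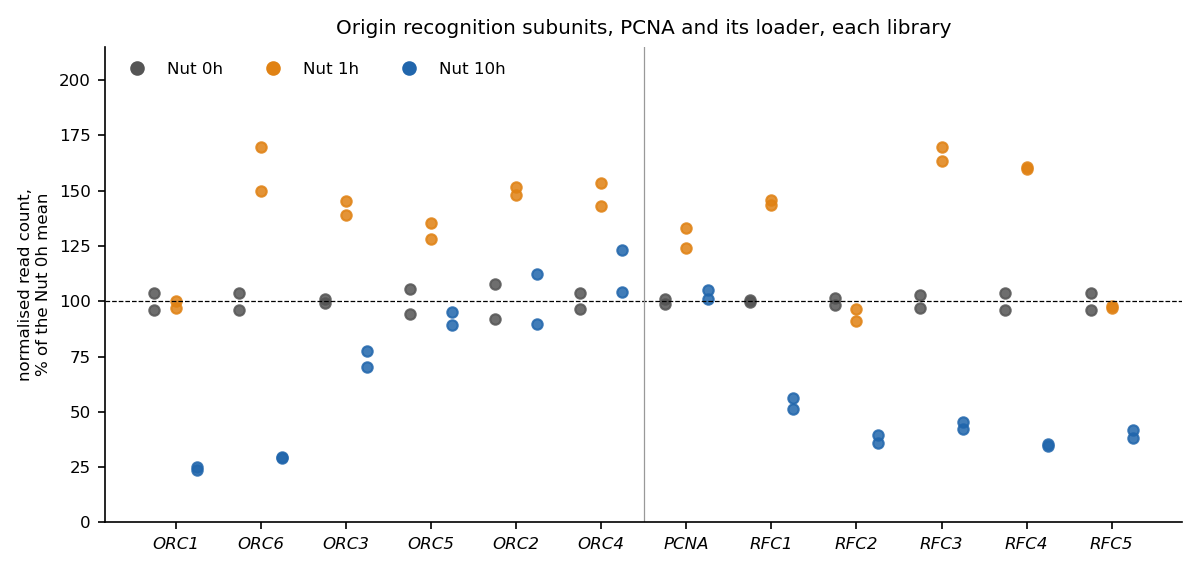
Normalised read count of each library as a percentage of the gene's Nut 0h mean, for the 6 subunits of the origin recognition complex (left of the line) and for PCNA and its loader RFC1 to RFC5 (right of the line), coloured by condition. At Nut 10h ORC1, ORC6 and RFC1 to RFC5 lie well below 100%, and ORC3 lies below it by less. ORC2 lies on both sides of 100%, ORC5 below it and ORC4 and PCNA above it, and these differences were not called.

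All 7 genes of the MCM group fell at Nut 10h, with log2 fold changes from -1.80 to -1.13. MCM2, which carries histones as well as forming part of the hexamer (ENSG00000073111, chr3:127317253-127341279), fell most. Its counts were 14267 and 13569.6 in the Nut 0h libraries, 9853 and 11209.7 in Nut 1h and 4279 and 3718 in Nut 10h, so both Nut 10h libraries stood far below every other library (-1.80 ± 0.11 (SE, adjusted p = 2.04e-08)). MCM7 had 27237 and 25086 in the Nut 0h libraries, 19618 and 21365 in Nut 1h and 12678 and 11150.0 in Nut 10h and fell least within the group (-1.13 ± 0.10 (SE, adjusted p = 1.17e-06)). The span of MCM7 also holds the microRNA genes MIR25, MIR93 and MIR106B and meets AP4M1 on the other strand, and the sources do not say whether strand was used in counting. MCM5 had 15608 and 14149.9 in the Nut 0h libraries, 8179.8 and 9502 in Nut 1h and 6295 and 5226 in Nut 10h and a change of -1.37 ± 0.11 (SE, adjusted p = 5.71e-07). MCM3, MCM4 and MCM6 differed from Nut 0h by -1.55, -1.70 and -1.47 on the log2 scale. MCM8, a related helicase that acts in homologous recombination and not in the MCM2 to MCM7 ring, had 1086 and 1171 in the Nut 0h libraries, 1945 and 2062 in Nut 1h and 482 and 513 in Nut 10h, and changed by -1.18 ± 0.10 (SE, adjusted p = 8.21e-07).

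Levels per length, as RPKM computed from the counts and the canonical transcript length, differed widely within the MCM group at Nut 0h. MCM7 was highest of the 53 with 321 ± 18.7, followed by PCNA with 225 ± 3.19 and POLD2 with 192 ± 15.2. MCM2, MCM3 and MCM5 lay close together at 123 ± 4.35, 125 ± 0.883 and 130.3 ± 9.03, differences no larger than the SD of MCM5. MCM6 was the lowest of the hexamer at 53.6 ± 0.252, and MCM8, outside it, stood at 4.57 ± 0.243. The lowest levels of the 53 at Nut 0h belonged to FAM111B at 3.41 ± 0.123 and ORC4 at 4.3 ± 0.225. At Nut 10h the order began with PCNA at 232 ± 6.37, MCM7 at 146 ± 13.3 and POLD2 at 142 ± 9.6.

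**Figure D3:**
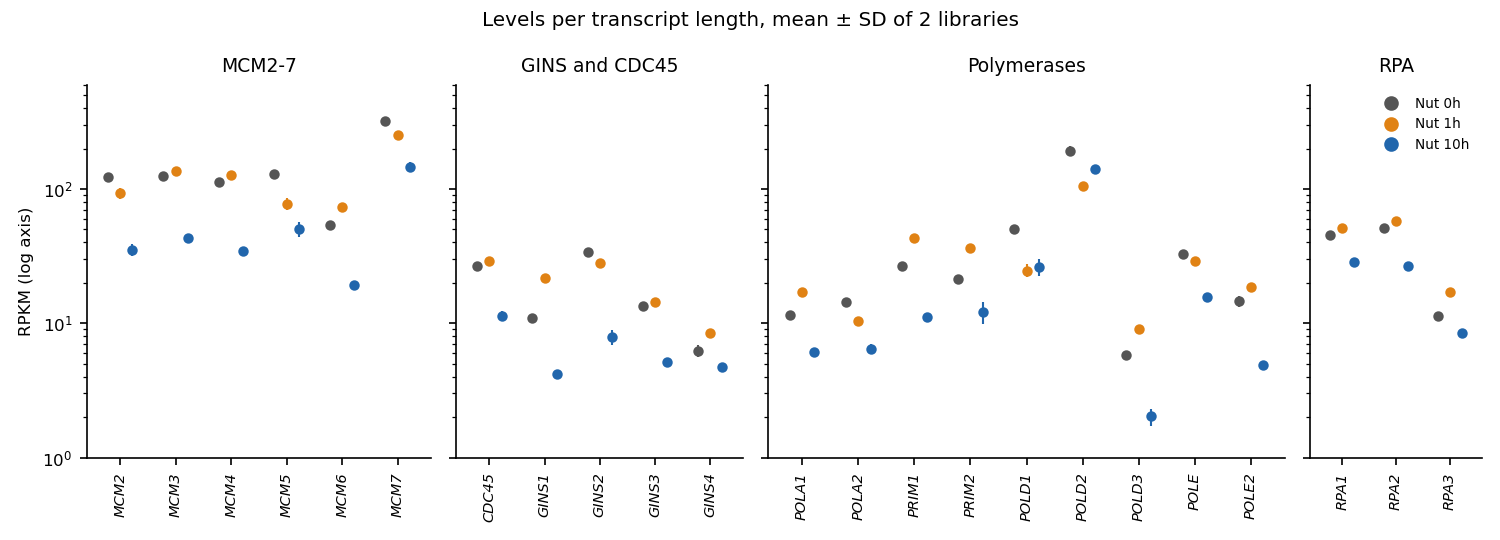
RPKM over the canonical transcript (log axis, mean ± SD of 2 libraries) for subunits of the MCM helicase, CDC45 and GINS, the replicative polymerases and RPA at the 3 times. MCM7 is the highest point at Nut 0h (321), and each gene's Nut 10h point lies below its Nut 0h point.

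All 8 factors that activate the helicase fell at Nut 10h. MCM10, a scaffold needed for the helicase to start unwinding (ENSG00000065328, chr10:13203558-13253110), had 2673 and 2639 in the Nut 0h libraries, 3629 and 3813 in Nut 1h and 515 and 529 in Nut 10h. The Nut 10h libraries held 19.7% of the control level (-2.35 ± 0.10 (SE, adjusted p = 1.19e-09)), the second largest fall of the 53. GINS2 (ENSG00000131153, chr16:85709804-85723679) had 2996 and 2939 in the Nut 0h libraries, 2462 and 2432 in Nut 1h and 747 and 626 in Nut 10h and changed by -2.11 ± 0.10 (SE, adjusted p = 5.41e-09), while GINS1 and GINS3 changed by -1.37 and -1.41. GINS4 had 832 and 725 in the Nut 0h libraries, 1025 and 1084 in Nut 1h and 569 and 596 in Nut 10h, which made it the least affected of the group (-0.42 ± 0.11 (SE, adjusted p = 0.00958)), and its adjusted p rose to 0.113 without Nut 0h replicate 1. CDC45, the third part of the active helicase beside MCM and GINS, changed by -1.24. CDC7, the kinase, had 962 and 1049 in the Nut 0h libraries, 2133 and 2129 in Nut 1h and 422 and 480.2 in Nut 10h, with the Nut 1h libraries highest and the Nut 10h libraries lowest (-1.16 ± 0.11 (SE, adjusted p = 1.63e-06) at Nut 10h). Its activating partner DBF4 changed by -1.42.

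All 9 polymerase genes fell at Nut 10h, with a median of -1.07. POLE2, the accessory subunit of polymerase epsilon, had 759 and 870.5 in the Nut 0h libraries, 1058 and 1024 in Nut 1h and 264 and 280.1 in Nut 10h, the largest change of the group (-1.58 ± 0.11 (SE, adjusted p = 1.33e-07)), and the catalytic subunit POLE changed by -1.07. In polymerase delta the subunits moved by different amounts. POLD3 changed by -1.51, the catalytic subunit POLD1 had 5955 and 5373 in the Nut 0h libraries, 2584 and 3018 in Nut 1h and 3312 and 2679 in Nut 10h and changed by -0.92 ± 0.12 (SE, adjusted p = 3.97e-05), and POLD2 had 10798 and 9652 in the Nut 0h libraries, 5348 and 5787 in Nut 1h and 7902 and 7180.2 in Nut 10h and changed by -0.44 ± 0.10 (SE, adjusted p = 0.00401). POLD2 was lowest at Nut 1h, an order that turned after removal of the GC trend (-0.18 at Nut 1h, then -0.47 for Nut 10h), and its Nut 10h difference was no longer called without Nut 0h replicate 1 (adjusted p = 0.0518). For the polymerase alpha and primase complex, which starts each new strand, POLA1, POLA2, PRIM1 and PRIM2 changed by -0.92, -1.16, -1.28 and -0.81. PRIM2, the regulatory subunit of primase, had 1127 and 1248 in the Nut 0h libraries, 2054 and 1973 in Nut 1h and 585 and 766 in Nut 10h. Its span contains the similar pseudogene PRIM2BP, and how reads were divided between the 2 is not given in the sources used here.

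PCNA parted from the genes it works with. The clamp, which rings DNA and holds the polymerases to it and is also among the known targets of p53 (ENSG00000132646, chr20:5095599-5107272), had 9576 and 9386 in the Nut 0h libraries, 11759 and 12639 in Nut 1h and 9955 and 9576 in Nut 10h. Its Nut 0h and Nut 10h libraries overlapped (0.04 ± 0.09 (SE, adjusted p = 0.764)), an interval of -0.14 to 0.22 at 2 SE on the log2 scale. RFC4 had 1799 and 1939 in the Nut 0h libraries, 2988 and 3000.3 in Nut 1h and 666 and 646 in Nut 10h and changed most in this group (-1.51 ± 0.10 (SE, adjusted p = 3.83e-08)), and the loader subunits RFC1, RFC2, RFC3 and RFC5 changed by -0.90, -1.40, -1.19 and -1.33. DSCC1, part of an alternative clamp loader that also serves sister chromatid cohesion, changed by -1.36. The ratio of PCNA to RFC4 normalised counts was 5.32 and 4.84 in the Nut 0h libraries, 3.94 and 4.21 in Nut 1h and 14.9 and 14.8 in Nut 10h.

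On the lagging strand FEN1, the nuclease that trims Okazaki fragments, had 5488 and 5139.5 in the Nut 0h libraries, 5994 and 6480.2 in Nut 1h and 1821 and 1604 in Nut 10h and changed by -1.63 ± 0.10 (SE, adjusted p = 2.88e-08) at Nut 10h. LIG1, the ligase that joins them, had 6214 and 5459.8 in the Nut 0h libraries, 3776 and 3979.5 in Nut 1h and 5057 and 3957 in Nut 10h, with a Nut 10h library on each side of the higher Nut 1h value. Its change of -0.37 ± 0.12 (SE, adjusted p = 0.0267) was the smallest that was called, and the adjusted p was 0.179 without Nut 0h replicate 1, 0.303 without Nut 10h replicate 2 and 0.0671 and 0.0686 without either Nut 1h library. For LIG1 the edgeR fit of 2 groups gave an adjusted p of 0.0536, and leaving out single libraries gave log2 values from -0.56 to -0.19. Of the RPA subunits, which coat single-stranded DNA, RPA1 and RPA2 changed by -0.66 and -0.94, and RPA3 had 772 and 747 in the Nut 0h libraries, 1125 and 1163 in Nut 1h and 542 and 584 in Nut 10h and changed by -0.43 ± 0.10 (SE, adjusted p = 0.00548).

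Fork protection and chromatin assembly held some of the largest changes. CLSPN, claspin, the adaptor through which a stalled fork activates the checkpoint kinase CHEK1 (ENSG00000092853, chr1:36185819-36235579), had 1225 and 1386 in the Nut 0h libraries, 2622 and 2644 in Nut 1h and 285 and 271 in Nut 10h. It was highest in both Nut 1h libraries and stood at 21.3% of the control at Nut 10h (-2.23 ± 0.11 (SE, adjusted p = 4.91e-09)). TIMELESS, whose protein pairs with TIPIN at the fork, had 3943 and 4227 in the Nut 0h libraries, 4349 and 4399 in Nut 1h and 2471 and 2425 in Nut 10h and changed least of the group (-0.74 ± 0.09 (SE, adjusted p = 2.53e-05)), while TIPIN had 776 and 819 in the Nut 0h libraries, 1598 and 1733 in Nut 1h and 358 and 347 in Nut 10h and changed by -1.18 ± 0.11 (SE, adjusted p = 1.18e-06). WDHD1, which ties polymerase alpha to the helicase, had 1678 and 1824 in the Nut 0h libraries, 3200.5 and 3185 in Nut 1h and 682 and 689 in Nut 10h and changed by -1.35 ± 0.10 (SE, adjusted p = 1.11e-07). CHAF1A, the large subunit of the histone chaperone CAF-1 (ENSG00000167670, chr19:4402637-4445015), had 5379 and 4776 in the Nut 0h libraries, 3606 and 3821 in Nut 1h and 1317 and 1119.5 in Nut 10h and changed by -2.06 ± 0.11 (SE, adjusted p = 7.78e-09). CHAF1B, the middle subunit, had 2548 and 2372 in the Nut 0h libraries, 2379.8 and 2645 in Nut 1h and 802 and 779.8 in Nut 10h and changed by -1.64 ± 0.10 (SE, adjusted p = 2.62e-08).

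The largest fall of the 53 was that of FAM111B, a protease related to FAM111A (ENSG00000189057, chr11:58874658-58894885). Its counts were 385 and 405 in the Nut 0h libraries, 982 and 1077 in Nut 1h and 67.7 and 56.8 in Nut 10h, a log2 fold change of -2.66 ± 0.14 (SE, adjusted p = 9.77e-09) that left 15.8% of the control. It ranked 18 among 16565 tested genes ordered from the largest fall, although at Nut 10h it rested on few reads, 70 and 61 before normalisation. FAM111A, which binds PCNA and clears protein obstacles ahead of forks, had 1215 and 1363 in the Nut 0h libraries, 2269 and 2323 in Nut 1h and 693 and 753 in Nut 10h and changed by -0.83 ± 0.10 (SE, adjusted p = 2.76e-05). In all, 6 of the 53 were among the 100 tested genes with the largest falls at Nut 10h and 35 were among the 500.

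**Figure D4:**
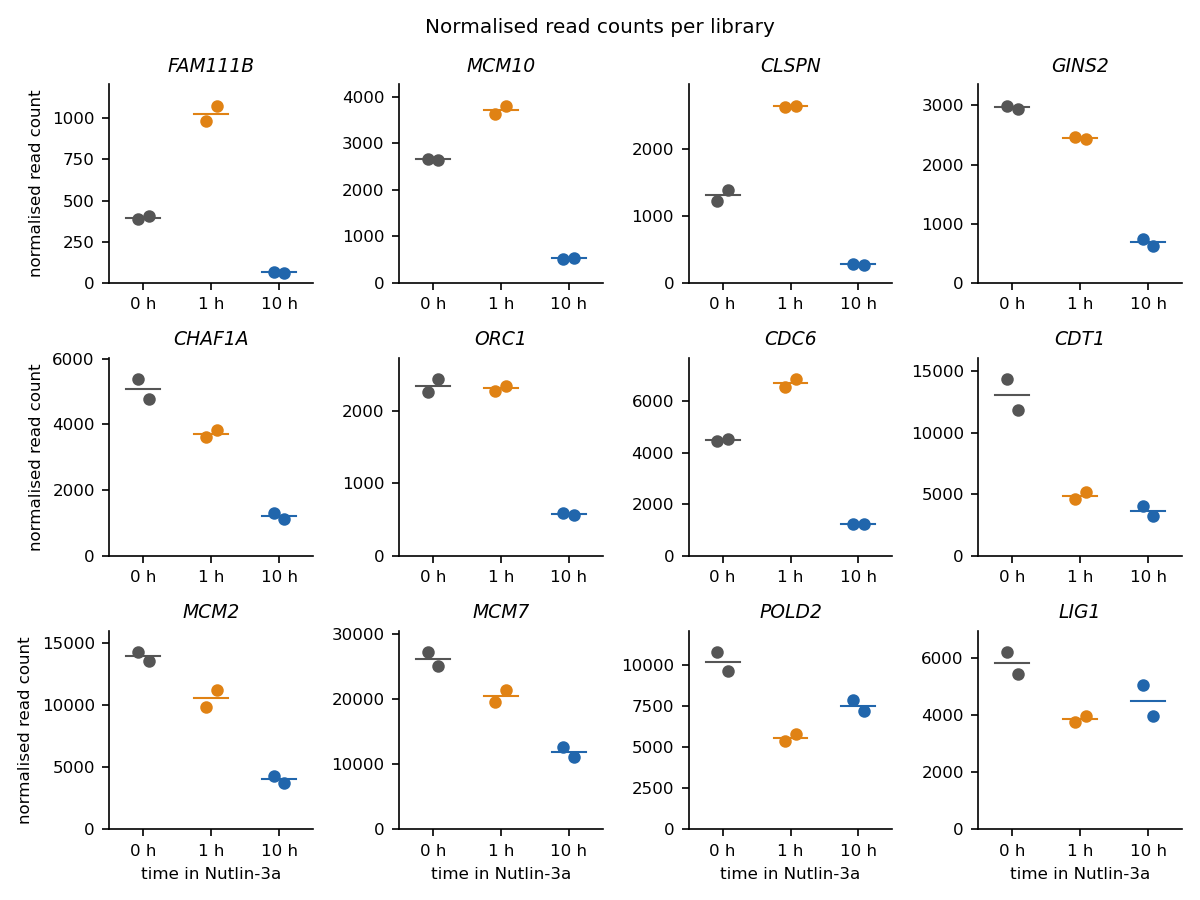
Normalised read counts in each library (points) with the condition mean (line) for the 9 replication genes with the largest falls at Nut 10h and for MCM7, POLD2 and LIG1, each on its own axis from 0. In the first 9 panels both Nut 10h points lie below all other points, whereas POLD2 and LIG1 have their lowest mean at Nut 1h, an order that turns for both after removal of the GC trend.

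After 1 h of Nutlin-3a the genes moved in both directions. By the same test, 31 of the 53 were called higher and 10 lower than Nut 0h, against 34.5% and 32.3% of all tested genes, with a median of 0.40 against 0.05. The largest rises were those of FAM111B (1.38 ± 0.11 (SE, adjusted p = 2.96e-07)), CDC7 (1.08 ± 0.10 (SE, adjusted p = 8.18e-07)), TIPIN (1.06 ± 0.10 (SE, adjusted p = 8.05e-07)), CLSPN (1.01 ± 0.10 (SE, adjusted p = 1.07e-06)) and GINS1 (1.00 ± 0.09 (SE, adjusted p = 7.22e-07)). GINS1 had 1185 and 1191 in the Nut 0h libraries, 2378 and 2365 in Nut 1h and 458 and 461 in Nut 10h, with both Nut 1h libraries far above both controls. WDHD1, FAM111A, MCM8, PRIM2 and RFC3 followed with 0.87, 0.83, 0.83, 0.76 and 0.74. RFC3 had 1260.1 and 1339 in the Nut 0h libraries, 2205 and 2122 in Nut 1h and 547 and 592 in Nut 10h. The genes called lower were CDT1 (-1.42 ± 0.13 (SE, adjusted p = 5.47e-07)), POLD1 (-1.02 ± 0.12 (SE, adjusted p = 4.39e-06)), POLD2 (-0.88 ± 0.10 (SE, adjusted p = 3.67e-06)), MCM5 (-0.75 ± 0.11 (SE, adjusted p = 4.46e-05)), LIG1 (-0.59 ± 0.12 (SE, adjusted p = 0.000483)), POLA2, CHAF1A, MCM2, MCM7 and GINS2. The last 5 changed by -0.47, -0.45, -0.40, -0.35 and -0.28. RFC2, with 3331 and 3226 in the Nut 0h libraries, 2991 and 3169 in Nut 1h and 1293 and 1185 in Nut 10h, was the lowest of the clamp and loader group and was not called (-0.09 ± 0.09 (SE, adjusted p = 0.397)). After removal of the GC trend RFC2 was at 0.13, and RFC5 was the lowest of that group at -0.45 and was called lower. The smallest rise that was called, FEN1 at 0.23 (adjusted p = 0.0478), was lost under most other settings.

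The direction at Nut 1h went with the GC content of the transcript. Of 27 genes with a GC content under 45%, 25 were called higher and 0 lower. Of 11 genes between 45% and 50%, 5 were called higher and 2 lower, and of 15 genes at 50% or above, 1 was called higher and 8 lower. The share of all tested genes called within each of these ranges was not counted. The 53 genes had a median GC content of 44.8%, below the 48.7% of tested genes. Across the 53, log2 fold change and GC content correlated with a Pearson r of -0.89 (Spearman rho -0.83) at Nut 1h and of -0.11 (rho -0.15) at Nut 10h. Over the 16137 tested genes with a GC value, r was -0.69 and -0.03. These are descriptions across genes that share the same 6 libraries. Among the 53 genes, replicates of a condition differed along GC content too. There r between GC content and the log2 ratio of replicate 1 to replicate 2 was 0.69, -0.61 and 0.75 in the vehicle, 1 h and 10 h libraries in turn. The spread between replicates was nonetheless small, with a median coefficient of variation of 4.30%, 3.12% and 5.84% over the 53.

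When a smooth trend on GC content was removed from each library, 20 of the 53 were called higher and 10 lower at Nut 1h, against 20.3% and 25.3% of tested genes, and the median was -0.00020. The sign of 27 genes turned. Called higher by both fits were 14 genes, namely MCM8, CDC6, ORC6, GINS1, GINS4, PRIM1, RFC4, FEN1, RPA3, CDC7, TIPIN, CLSPN, FAM111A and FAM111B. Among them FAM111B kept 0.59, CLSPN 0.57, ORC6 0.48, TIPIN 0.43, CDC7 0.38, FAM111A 0.33, GINS1 0.31 and MCM8 0.265 on the log2 scale. Called lower by both were CDT1, GINS2, POLA2 and POLD2, with -0.24, -0.38, -0.53 and -0.18. Without the offset the GINS2 call was lost when scaled by library totals (adjusted p = 0.0560) and without Nut 0h replicate 1, Nut 1h replicate 1 or Nut 1h replicate 2 (adjusted p = 0.0838, 0.122 and 0.124). ORC3, ORC4, ORC5 and DBF4 changed from called higher to called lower, and MCM2 and MCM7 from called lower to called higher. RFC5 (-0.45) and GINS3 (-0.38), not called without the offset, were called lower with it. POLE (0.30), CDC45 (0.28), TIMELESS (0.26) and MCM3 (0.25) were likewise called only with it, as higher. With a replicate block beside the offset, 4 of these calls were lost, those of CDC6, POLD2, ORC3 and MCM2 (adjusted p = 0.0638, 0.0706, 0.0576 and 0.0697). POLD1, at -1.02 without the offset, was at 0.12 with it. MCM5, LIG1, WDHD1 and POLD3 kept their sign but were no longer called, at -0.18, -0.048, 0.12 and 0.13. What made the Nut 1h libraries differ along GC content was not tested.

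**Figure D5:**
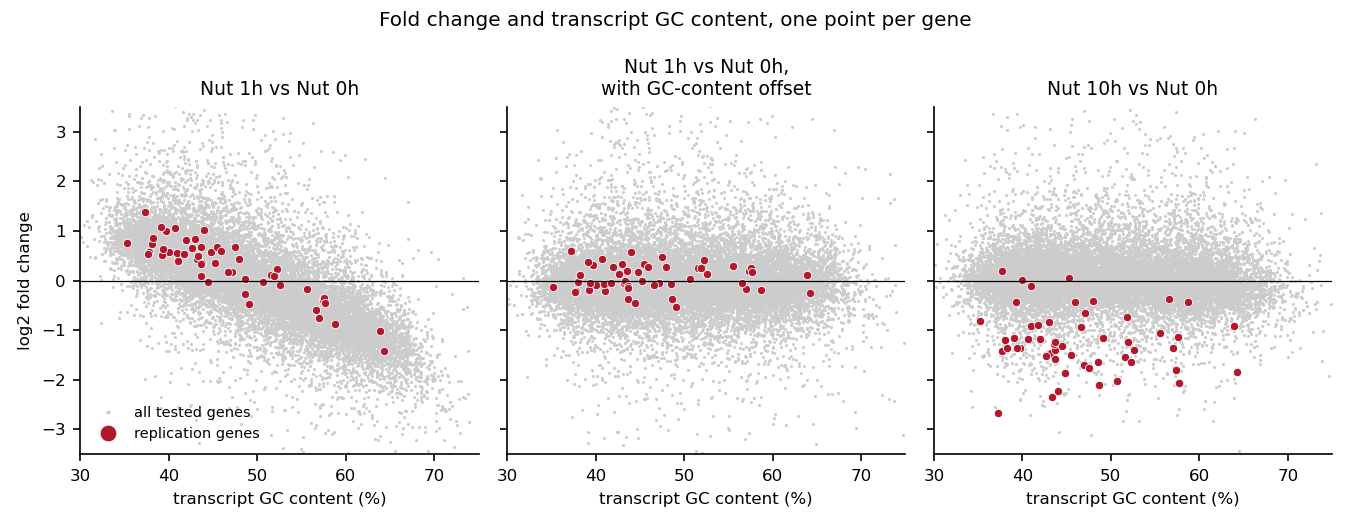
Log2 fold change against the GC content of the longest transcript for all tested genes (grey) and the 53 replication genes (red), for Nut 1h, for Nut 1h after removal of the GC trend and for Nut 10h, with genes beyond ±3.5 outside the frame. The red points slope downwards at Nut 1h (Pearson r -0.89), are flat with the offset (0.02) and lie below 0 with little slope at Nut 10h (-0.11).

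The Nut 10h values barely depended on this trend. With the offset the same 49 genes were called lower, 0 were called higher, against 22.4% and 16.9% of tested genes, and the median was -1.31. No log2 fold change at Nut 10h moved by more than 0.08.

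Between Nut 1h and Nut 10h, 50 of the 53 were called lower and 1, POLD2, higher, against 33.7% and 34.2% of tested genes, with a median of -1.58. POLD2 rose by 0.44 ± 0.10 (SE, adjusted p = 0.00128), and POLD1 (0.10 ± 0.12 (SE, adjusted p = 0.471)) and LIG1 (0.22 ± 0.12 (SE, adjusted p = 0.113)) were not called. The Nut 1h and Nut 10h libraries of POLD1 and of LIG1 overlapped. After removal of the GC trend 49 were called lower and 1 higher, against 28.8% and 29% of tested genes. POLD1, LIG1 and POLD2 turned sign and were called lower, with -1.02, -0.35 and -0.29. ORC4 turned to 0.36 and was the gene called higher, and ORC2 (0.069), ORC5 (0.072) and PCNA (0.0074) turned sign and were no longer called. Called higher at Nut 1h, lower at Nut 10h and lower between these times were 27 of the 53, against 4.74% of tested genes, and the first 2 of these comparisons share the Nut 0h libraries. With the GC-content offset the pattern was found in 20 of the 53, 14 of them among the 27, against 4.28% of tested genes. FAM111B and CLSPN differed most between these times, by -4.05 ± 0.14 (SE, adjusted p = 1.28e-10) and -3.24 ± 0.11 (SE, adjusted p = 1.28e-10). With the offset they were at -3.28 and -2.83.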

How the data were processed

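RNA-seq reads of 6 HCT116 libraries (2 per condition) were trimmed with Trim Galore 0.6.6, aligned to GRCh37 with STAR 2.7.0f and counted per gene with featureCounts of Subread 2.0.0, according to the submitters' processing notes. The deposited values are raw counts per gene without normalization, 26068076 to 35473485 per library. The strand setting and the treatment of reads mapping to several places are not given in the sources used here, and 34 of the 53 genes share part of their span with another annotated gene. Symbols came from the authors' table of comparisons, whose own log2 fold changes and p-values were not used.

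All 57905 rows were filtered with filterByExpr, and 16565 genes were normalised by TMM and tested with edgeR 4.0.16 (limma 3.58.1, R 4.3.3), using the quasi-likelihood test over all 6 libraries with the condition as the only term (3 residual degrees of freedom) and Benjamini-Hochberg adjustment over all tested genes. Calls used an adjusted p of at most 0.05. Normalised read counts are counts scaled by the TMM library sizes. The standard error is the log2 fold change over the square root of F. GC content, positions and lengths came from the GENCODE annotation lifted to GRCh37, with a GC value for 97.4% of tested genes, and the GC-content offset is a loess trend (span 0.4). Scripts were tested on simulated data. Alternatives were DESeq2 1.42.0, other size factors, no filter, a replicate block, the GC-content offset, 2-group fits, a threshold of 0.01 and leaving out each library. The genes and lists were chosen with earlier results of these data known. Values in every library are given for the genes with the largest fall and rise in each role group at each time and for the 10 largest changes at each time. Figures were drawn with matplotlib 3.10.9.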

Additional observations from a re-analysis of the deposited data

Results flagged for a closer look

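Against the same Nut 0h libraries, 27 of the 53 replication genes had opposite calls, higher at Nut 1h and lower at Nut 10h. In the direct comparison with Nut 1h, Nut 10h was called lower for 50 of the 53, all 27 among them, and higher for 1 (edgeR, adjusted p of at most 0.05). Of all 16565 tested genes, 4.74% were, like the 27, called higher at Nut 1h and lower in the other comparisons of the 3. Among the 27, the log2 difference between the times was largest for FAM111B -4.05, CLSPN -3.24, MCM10 -2.83, ORC6 -2.44, CDC6 -2.44, GINS1 -2.37, CDC7 -2.24, TIPIN -2.24 and WDHD1 -2.22. It was intermediate for RFC4 -2.19, POLD3 -2.17, MCM8 -2.01, DSCC1 -1.995, DBF4 -1.96, PRIM1 -1.95, POLE2 -1.94, RFC3 -1.93, MCM6 -1.91, FEN1 -1.86 and FAM111A -1.67. The smallest differences were PRIM2 -1.58, GMNN -1.57, POLA1 -1.47, RFC1 -1.43, RPA3 -1.02, ORC3 -0.94 and GINS4 -0.85. These sizes and their order are those without the GC-content offset. With the GC-content offset the difference between the times was still called lower for all 27, whereas 14 of the 27 were still called higher at Nut 1h and the other 13 were not. FEN1 grew to -2.10 and the others shrank, for example FAM111B to -3.28, CLSPN to -2.83, GINS1 to -1.71 and CDC7 to -1.56. WDHD1 was then at -1.50, RFC1 at -0.89, POLA1 at -0.88, PRIM2 at -0.71 and ORC3 at -0.27. In that fit 20 of the 53 had calls in these directions in all 3 comparisons, against 4.28% of tested genes, and 28.8% of tested genes were called lower between the times. Groups of 2 libraries are too small for a check of outlying samples.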

How the results depend on the processing

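At Nut 10h against Nut 0h the count of genes called lower was 46 to 49 under every alternative tried, and 0 genes were called higher under any. It was 46 without Nut 0h replicate 1, where GINS4, POLD2 and LIG1 lost their calls. At Nut 1h the count called higher moved most with the GC-content offset, from 31 to 20, and to 18 with the GC-content offset and replicate block, while leaving out single libraries gave 27 to 30 called higher and 7 to 10 called lower. The count called lower at Nut 1h was 10 with the offset and 8 with the offset and block, where CDC6 and MCM2 were no longer called higher nor ORC3 and POLD2 lower. The count called higher at Nut 10h against Nut 1h was 1 to 3 when single libraries were left out, with POLD1 (0.29) and LIG1 (0.43) joining POLD2 without Nut 10h replicate 2, and the count called lower was 48 to 50.

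With the GC-content offset these genes turned sign at Nut 1h against Nut 0h (log2 values): MCM2 0.19, MCM4 -0.067, MCM6 -0.049, MCM7 0.26, MCM10 -0.0012, ORC1 0.037, ORC2 -0.083, ORC3 -0.19, ORC4 -0.20, ORC5 -0.22, GINS3 -0.38, POLA1 -0.069, PRIM2 -0.13, POLD1 0.12, POLE 0.30, POLE2 -0.11, RFC1 -0.044, RFC2 0.13, RFC3 -0.022, PCNA -0.0002, RPA1 -0.059, RPA2 -0.097, DBF4 -0.23, GMNN -0.14, DSCC1 -0.059, CHAF1A 0.17 and CHAF1B -0.073. With the offset and the replicate block they were MCM2 0.19, MCM4 -0.067, MCM6 -0.049, MCM7 0.26, MCM10 -0.0006, ORC1 0.038, ORC2 -0.080, ORC3 -0.19, ORC4 -0.20, ORC5 -0.22, GINS3 -0.38, POLA1 -0.069, PRIM2 -0.13, POLD1 0.12, POLE 0.30, POLE2 -0.11, RFC1 -0.044, RFC2 0.13, RFC3 -0.022, RPA1 -0.059, RPA2 -0.097, DBF4 -0.23, GMNN -0.14, DSCC1 -0.059, CHAF1A 0.17 and CHAF1B -0.073. At Nut 10h against Nut 1h the offset gave ORC2 0.069, ORC4 0.36, ORC5 0.071, POLD1 -1.02, POLD2 -0.29, PCNA 0.0074 and LIG1 -0.35, and with the replicate block ORC2 0.065, ORC4 0.36, ORC5 0.072, POLD1 -1.02, POLD2 -0.29, PCNA 0.0059 and LIG1 -0.35. At Nut 10h against Nut 0h ORC2 turned to -0.014 and -0.015. The offset is fitted to these values, so a smaller GC trend follows from its construction, and what gave the trend was not tested.

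Other reversals concerned values that were not called with all 6 libraries and no offset, and the cause was not tested. Library totals gave ORC1 0.035 and RFC5 0.020 at Nut 1h. With all detected genes kept CHAF1B was -0.014 at Nut 1h, and ORC2 and PCNA were -0.029 and -0.0025 at Nut 10h. DESeq2 gave -0.019 for CHAF1B and -0.0006 for ORC2, and the fit of 2 groups -0.0043 for CHAF1B. Leaving out each library gave ORC1 at Nut 1h against Nut 0h from -0.085 to 0.025, RFC5 at Nut 1h against Nut 0h from -0.10 to 0.0085, CHAF1B at Nut 1h against Nut 0h from -0.055 to 0.11, ORC2 at Nut 10h against Nut 0h from -0.14 to 0.17 and POLD1 at Nut 10h against Nut 1h from -0.025 to 0.29.

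With the replicate number as a block (replicate block), 30 genes were called higher and 10 lower at Nut 1h, 49 lower at Nut 10h, and 50 lower and 1 higher between the times, so that only FEN1 at Nut 1h lost its call (adjusted p = 0.055). The labels do not say what a replicate number marks, and deviations of same-numbered libraries correlated at -0.15 (Nut 0h and Nut 1h), 0.22 (Nut 0h and Nut 10h) and -0.14 (Nut 1h and Nut 10h), so the numbers were not taken to pair the libraries. The number of libraries, 2 per condition, sets the precision, and the lowest count of any of the 53 genes in a library was 61.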

Other observations

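Ratios between partner genes were taken within each library as values with no test. The ratio of CDT1 to GMNN normalised counts was 9.06 and 7.81 in the Nut 0h libraries, 2.43 and 2.60 in Nut 1h and 6.04 and 5.10 in Nut 10h. FAM111B to FAM111A stood at 0.317 and 0.297, 0.433 and 0.464, and 0.0976 and 0.0754 at the same times. CLSPN to TIMELESS was 0.311 and 0.328, then 0.603 and 0.601, then 0.115 and 0.112. The pairs differ in GC content, and these ratios carry the same trend as the single values at Nut 1h.

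The 53 genes took 0.673% and 0.676% of all reads assigned to genes in the Nut 0h libraries, 0.688% and 0.705% in Nut 1h and 0.313% and 0.306% in Nut 10h. MCM2 to MCM7 alone took 0.267% and 0.264%, 0.239% and 0.253%, and 0.102% and 0.0969%.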
